A study of Homo sapiens with 30 samples.

Results

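The interval described here spans positions 139740001 to 139860000 of chromosome 9 (hg19), 120 kb that hold PHPT1, EDF1, TRAF2 and FBXW5, telomeric of NOTCH1. Its members are chosen by position, and are the restriction fragment ends listed between those positions: 389 of the 382657 chromosome 9 ends in the tables of the NOTCH1 promoter viewpoint, 461 of 429740 at the S2 viewpoint and 458 of 428705 at the S4 viewpoint. The centre of the most covered window lay at 139443268 for the promoter viewpoint, 139385872 for S2 and 139523746 for S4. The interval therefore began 297 kb and ended 417 kb from the promoter viewpoint, lay 354 to 474 kb from S2, and lay 216 to 336 kb from S4. Exons, introns and UTRs were not assigned, since no hg19 annotation was used here.

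The data are 30 4C-seq libraries of K562, a human chronic myelogenous leukaemia line, with 2 libraries for each of 15 groups. At each of the 3 viewpoints the groups were unedited cells (WT) and 4 mutant lines: cells mutated at the site S2, at S4, at S5, and at both S4 and S5 (the S4-S5 mutant). The series describes these as CTCF-depleted sites of the NOTCH1 locus, and all groups share the K562 background with no treatment given in the labels. The kind of mutation, the position of S5 and whether a mutant line was 1 clone are not stated in the labels, and neither is whether the 2 libraries of a group came from separate cultures. The p-values below therefore rest on the spread between libraries as listed, and that spread may be technical only. For edgeR's p-values and standard errors (SE) it is estimated jointly over all windows or bins of a fit. They do not measure the interval's own spread alone.

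4C-seq fixes chromatin, cuts it, ligates ends that lie close together in the nucleus and reads out everything joined to 1 chosen fragment, the viewpoint. Contacts become rarer with distance along the chromosome. CTCF is a DNA-binding protein that halts cohesin during loop extrusion, and pairs of CTCF sites anchor many loops and domain boundaries, so removal of a site can let contacts spread past it or weaken those it anchored. Of the genes in the interval, PHPT1 encodes a phosphohistidine phosphatase, EDF1 a transcriptional coactivator that also acts on collided ribosomes, TRAF2 an adaptor and ubiquitin ligase of tumour necrosis factor receptor signalling, and FBXW5 a substrate receptor of cullin-RING ubiquitin ligases. In RefSeq's gene order (GRCh38.p14) MAMDC4 lies between PHPT1 and EDF1, AJM1 is the next protein-coding gene centromeric of PHPT1, and C8G and LCN12 are the next ones telomeric of FBXW5.

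The 250 bases before the annotated start of each of the 4 genes are shown because they are the promoters whose surroundings the contacts reach, and because DpnII sites decide where a 4C read can lie. They are from RefSeq (GRCh38.p14), 5′ to 3′ on the gene's own strand, and all 4 genes were matched by symbol. Capitals mark sites of the second enzymes, NlaIII (CATG) and CviQI (GTAC).
PHPT1: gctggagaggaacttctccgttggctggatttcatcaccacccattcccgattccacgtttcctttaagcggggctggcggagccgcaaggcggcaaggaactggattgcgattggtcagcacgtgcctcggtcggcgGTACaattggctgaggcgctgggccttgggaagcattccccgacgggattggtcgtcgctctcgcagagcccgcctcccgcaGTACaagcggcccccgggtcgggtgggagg
EDF1: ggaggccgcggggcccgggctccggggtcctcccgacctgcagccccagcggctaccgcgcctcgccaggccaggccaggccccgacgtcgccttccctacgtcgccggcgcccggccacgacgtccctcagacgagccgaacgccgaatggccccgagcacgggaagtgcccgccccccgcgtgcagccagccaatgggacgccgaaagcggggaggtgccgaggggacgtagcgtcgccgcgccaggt
TRAF2: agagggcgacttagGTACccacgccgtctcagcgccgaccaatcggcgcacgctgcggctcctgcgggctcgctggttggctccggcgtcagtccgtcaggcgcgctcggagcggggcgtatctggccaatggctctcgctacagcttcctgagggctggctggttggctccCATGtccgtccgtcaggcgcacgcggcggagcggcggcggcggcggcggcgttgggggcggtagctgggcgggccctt
FBXW5: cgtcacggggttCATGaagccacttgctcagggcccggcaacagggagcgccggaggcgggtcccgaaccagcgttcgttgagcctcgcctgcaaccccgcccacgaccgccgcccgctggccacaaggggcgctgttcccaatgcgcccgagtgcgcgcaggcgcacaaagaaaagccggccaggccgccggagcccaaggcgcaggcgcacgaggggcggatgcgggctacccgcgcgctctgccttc

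The PHPT1 stretch is chr9:136849159-136849408 on the plus strand, that of EDF1 chr9:136866309-136866558 on the minus strand, that of TRAF2 chr9:136886266-136886515 on the plus strand and that of FBXW5 chr9:136944739-136944988 on the minus strand, all in GRCh38.p14. These positions cannot be set against the hg19 positions of the fragment ends. The DpnII site GATC occurred in 0 of the 4 stretches, against 35.8% of 35116 promoter stretches of the same length. CATG occurred in 2 of 4 (47.6% of all) and GTAC in 2 of 4 (25.5% of all). Each of these motifs reads the same on both strands. GC content was 64.0% for PHPT1, 77.2% for EDF1, 72.8% for TRAF2 and 72.4% for FBXW5.

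Every WT library was shallower than every mutant library, with 1437870 to 2326487 reads on chromosome 9 against 3500663 to 8008761. The 5 kb on either side of the viewpoint, left out below, held 77.3 to 77.8% of them in WT and 88.1 to 98.6% in the mutants at the promoter, 59.8 to 60.3% and 61.3 to 76.7% at S2, and 31.4 to 32.1% and 56.8 to 90.9% at S4. Reads are called near-cis where they lie outside that mask and up to 500 kb from the viewpoint; they numbered 212633 to 1113164 in WT and 64583 to 2691302 in the mutants. Shares below are of near-cis reads unless stated. WT libraries stood apart from all mutants at every viewpoint: 66.7 to 73.4% of their reads outside the 5-kb mask were near-cis, against 81.6 to 89.9% in the 24 mutant libraries, and 54.1 to 57.7% of near-cis ends had a read, against 33.7 to 52.6%. What part these differences have in the results below was not tested. Without molecular identifiers, several reads at 1 end can stem from 1 ligation event.

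Relative to all near-cis reads, the interval was lower in every mutant than in WT, at every viewpoint. Across the 12 comparisons of a mutant with WT the share was 1.43 to 5.64 times lower. The lowest share at the promoter and at S4 was that of the S2 mutant, and the lowest at S2 was that of the S4 mutant. Without the most covered end of each library, the lowest at S2 was instead that of the S2 mutant.

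Seen from the NOTCH1 promoter, the interval held 2.92 and 2.89% of near-cis reads in the WT libraries, from 6213 and 10112 reads. The S2 mutant libraries held 0.545 and 0.485%, from only 352 and 334 reads. The S4 mutant libraries held 1.98 and 2.02%, those of the S5 mutant both held 1.29%, and those of the S4-S5 mutant held 1.57 and 1.505%. No mutant library reached the WT range, and the 5 genotypes did not overlap. The log2 fold against WT was -2.50 ± 0.09 (SE) for the S2 mutant, -0.54 ± 0.05 for S4, -1.17 ± 0.05 for S5 and -0.92 ± 0.04 for the double mutant.

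Seen from S2, WT libraries held 2.77 and 2.80% in the interval, from 13800 and 18323 reads. The S2 mutant held 1.57 and 1.58%, the S4 mutant 1.04% in both libraries, the S5 mutant 1.97 and 1.92%, and the S4-S5 mutant 1.81 and 1.72%. The log2 folds against WT were -0.82 ± 0.03 (SE) in the S2 mutant, -1.42 ± 0.03 in the S4 mutant, -0.52 ± 0.03 in the S5 line and -0.66 ± 0.03 in the S4-S5 mutant. The order of the mutants thus differed from that at the promoter, with the S4 mutant rather than the S2 mutant lowest. The lowest rank rested on the most covered end of each library. Without that end the S2 mutant was lowest here too, with 0.666 and 0.706% against 0.980 and 0.979% in the S4 mutant.

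Seen from S4, the nearest viewpoint, WT libraries held 2.46 and 2.47%, from 19658 and 27545 reads. The S2 mutant held 0.570 and 0.618%, the S4 mutant 0.950 and 0.944%, the S5 mutant 1.60 and 1.58%, and the S4-S5 mutant 1.13 and 1.15%. The log2 folds against WT were -2.06 ± 0.03 (SE), -1.38 ± 0.03, -0.64 ± 0.03 and -1.12 ± 0.03 in the same order.

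**Figure D1:**
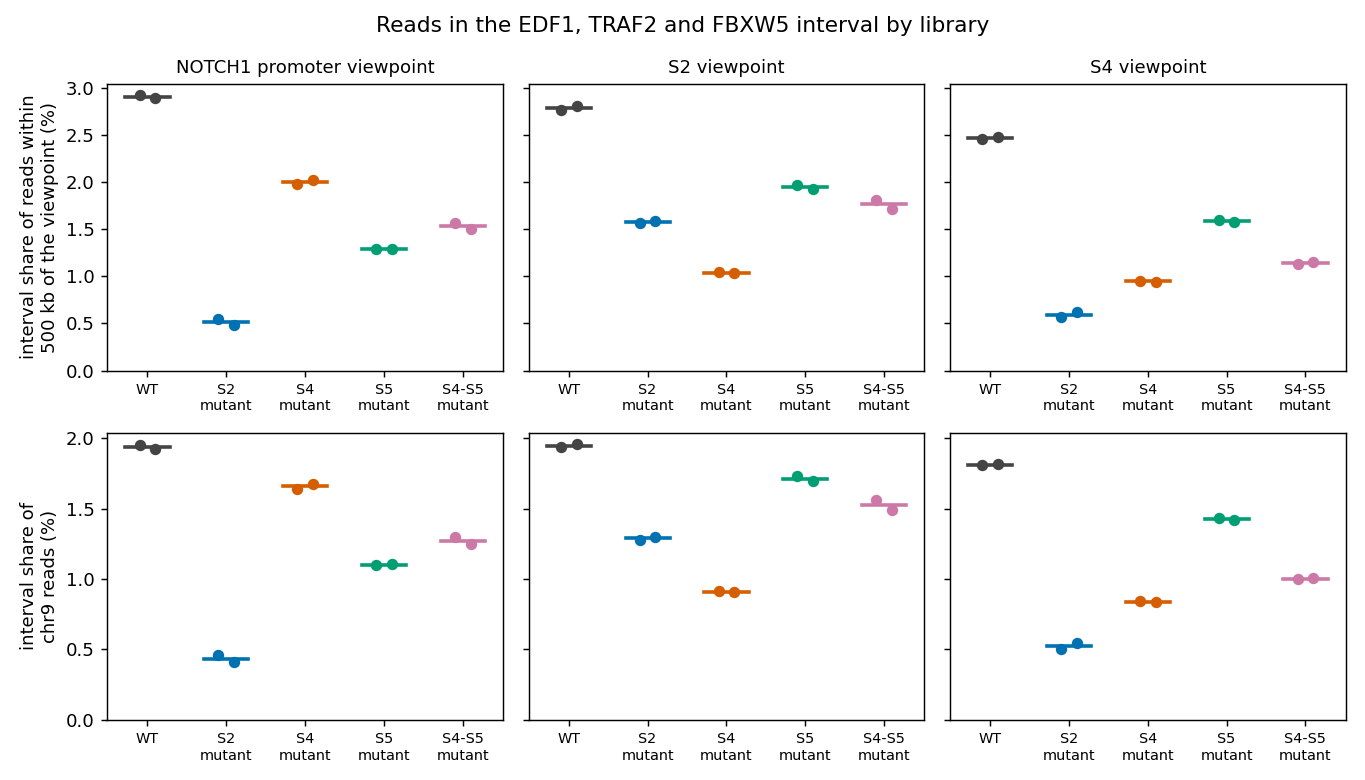
Share of reads in the interval for each library, as a percentage of reads within 500 kb of the viewpoint (top) and of chromosome 9 reads outside the 5-kb mask (bottom), with genotypes on the x axis; points are libraries and bars are means of 2. WT libraries lie highest in all 6 panels, and the S2 mutant lies lowest at the promoter (0.545 and 0.485%) and at S4 (0.570 and 0.618%).

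All 12 folds passed edgeR's quasi-likelihood test on 120-kb windows of the whole chromosome, with a largest Benjamini-Hochberg adjusted p of 2.07e-29. A call of this kind was common. Of 461 windows tested at the promoter, 89.4% were called in the S2 mutant, 90.2% for S4, 91.8% for S5 and 93.3% for the double mutant. The shares in the same order were 90.9, 94.4, 92.1 and 94.2% of 428 windows at S2, and 89.7, 91.4, 90.8 and 91.4% of 456 windows at S4. A call on the interval is therefore near the background. The folds were also smaller than those of the chromosome at large: the median window had a log2 fold of -5.16 to -2.27 at the promoter, -8.27 to -7.50 at S2 and -8.01 to -6.56 at S4, and the interval lay above that median in 12 of 12 comparisons. Every other 120-kb window within 500 kb of the viewpoint did so too, so this is not particular to the interval.

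The direction depends on what the reads are scaled to. It held in 12 of 12 comparisons when chromosome 9 totals replaced near-cis totals and when TMM factors came from near-cis bins. Factors computed over all chromosome 9 windows reversed 10 of the 12 under TMM (log2 folds of 0.58 to 1.63) and 11 under DESeq2 (0.25 to 3.801), and DESeq2 with factors from near-cis bins reversed 2, the S4 mutant at the promoter (0.079) and the S2 mutant at S2 (0.30). Of the chromosome 9 windows, 54.0 to 77.6% held a read in the mutant libraries, against 94.6 to 97.9% in WT. Counting covered ends in place of reads left only 3 folds past the threshold. These were the S2 mutant at the promoter and at S4 and the S4-S5 mutant at S4, with log2 folds between -0.46 and -0.37. Against mutants that keep the site in question in place of WT, 8 of 12 comparisons reversed (0.044 to 1.58), 1 was no longer called and 3 stayed lower (-1.62 to -0.75).

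As a share of all chromosome 9 reads outside the mask, the interval gave the same order. From the promoter it held 1.95 and 1.92% in WT, 0.458 and 0.408% in the S2 mutant, 1.64 and 1.68% in the S4 mutant, 1.10% in both S5 mutant libraries, and 1.30 and 1.25% in the S4-S5 mutant. From S2 the WT values were 1.94 and 1.96%, and the mutants ran from 0.907% in the S4 mutant to 1.73% in the S5 mutant. From S4 the WT libraries both held 1.81%, and the mutants ran from 0.503% in the S2 mutant to 1.43% in the S5 mutant. WT libraries were above all 8 mutant libraries at each viewpoint.

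An exact permutation test on the F statistic for genotype, over all 945 ways of parting 10 libraries into pairs, gave p = 0.00106 (upper tail, adjusted 0.00212 over 18 values) for the near-cis share at every viewpoint. That is the smallest p the design allows. With covered ends in place of reads, none of the 18 values passed, with adjusted exact permutation p-values of 0.0857 to 0.733. Among the 4 mutants alone, over 105 partings of 8 libraries, the exact permutation p was 0.00952 at each viewpoint (adjusted 0.00952), again the smallest possible. The share of chromosome 9 reads and the ratio to the centromeric flank described below gave the same p-values. No permutation of 2 libraries against 2 can go below 0.333.

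The S4-S5 mutant was compared with each single mutant, a contrast that does not use the WT values. From the promoter its interval share was lower than in the S4 mutant (log2 fold -0.38, adjusted p = 3.09e-15) and higher than in the S5 mutant (log2 fold 0.25, adjusted p = 8.37e-06), both by edgeR's quasi-likelihood test. From S2 it was higher than in the S4 mutant (log2 fold 0.76, edgeR adjusted p = 4.42e-100) and lower than in the S5 mutant (log2 fold -0.14, edgeR adjusted p = 6.27e-05). From S4 it was again higher than in the S4 mutant (log2 fold 0.27, edgeR adjusted p = 4.62e-18) and lower than in the S5 mutant (log2 fold -0.48, edgeR adjusted p = 7.72e-54). With near-cis totals the double mutant thus lay between the 2 single mutants at each viewpoint. Factors over all chromosome 9 windows put it below both at the promoter, where its log2 fold over the S5 mutant was -0.23 under TMM and -0.38 under DESeq2. At S4 they gave -0.083 and -0.10 over the S4 mutant, neither past the threshold. With covered ends it lay above both at the promoter (0.035 and 0.19) and below both at S4 (-0.067 and -0.032), with no call. Of all windows, 63.1, 47.9 and 47.1% were called against the S4 mutant at the 3 viewpoints in turn, and 64.9, 48.1 and 51.5% against the S5 mutant. The value at S2 against the S5 mutant missed the threshold with a 20-kb mask (-0.031) and without the most covered end of each library (-0.036), and that at S4 against the S4 mutant turned to -0.30 with non-blind ends alone.

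Windows of the same width within the near-cis range (7 for the promoter, 8 for S2, 7 for S4) place the interval among its neighbours. The interval had the lowest log2 fold of them in 7 of 12 comparisons, the second lowest in 2, the third in 2 and the fourth in 1, and it was below their median in 12 of 12. These windows were not matched for distance, and at the promoter and S2 the interval was the most telomeric of them. The promoter window centred 363 kb on the centromeric side had -0.79 in the S2 mutant, -0.60 in S4, -1.38 in S5 and -0.90 in S4-S5. The interval, centred 357 kb away, had -2.50, -0.54, -1.17 and -0.92 there. At the promoter the median window changed by -0.23, -0.47, -0.26 and -0.56 on the log2 scale, for the mutants in the order used above. At S2 the medians were -0.23, -0.28, -0.43 and -0.50, and at S4 they were -0.36, -0.13, -0.27 and -0.39. The interval was far below the other windows in the S2 mutant at the promoter and at S4, and close to the median in the S4 mutant at the promoter (-0.54 against -0.47) and the S5 mutant at S2 (-0.52 against -0.43).

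**Figure D2:**
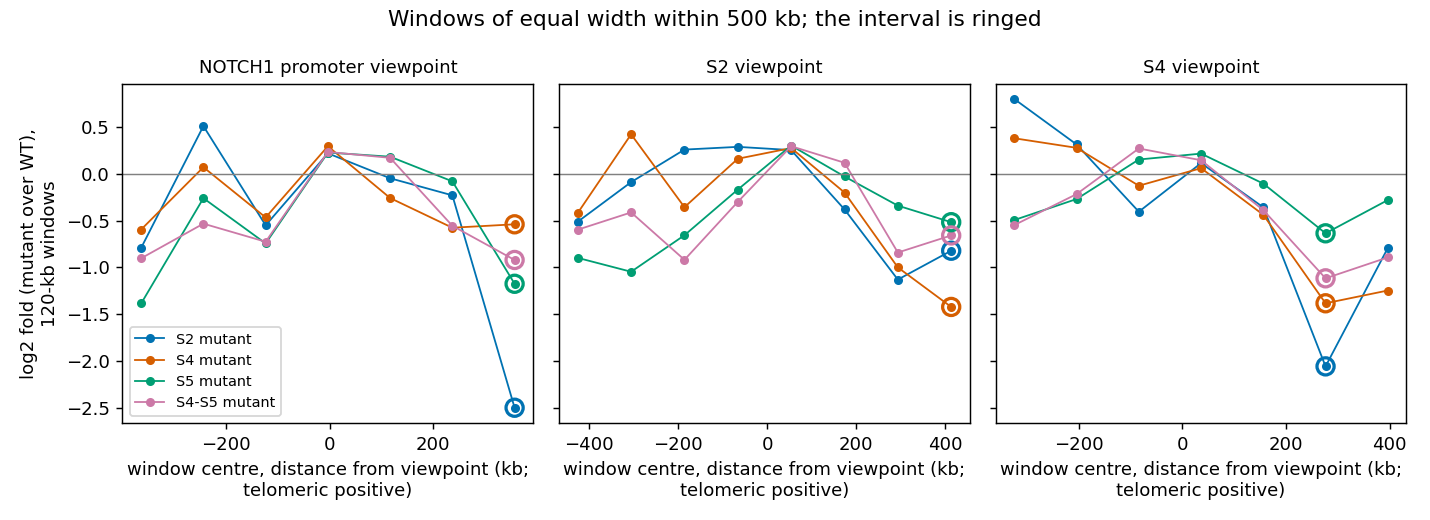
log2 fold of each mutant over WT in windows of 120 kb (y) against the distance of the window centre from the viewpoint in kb (x, telomeric positive); rings mark the interval. The ringed points are below 0 in all 4 mutants at each viewpoint and reach -2.50 in the S2 mutant at the promoter.

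A ratio within each library does not depend on the scaling total. The interval was set against the equally wide flank on its centromeric side, 139620001 to 139740000. From the promoter the log2 ratio of interval to flank reads was -0.56 and -0.58 in WT, -2.75 and -2.93 in the S2 mutant, -0.55 and -0.52 in the S4 mutant, -1.67 and -1.66 in the S5 line, and -0.92 and -0.95 in the S4-S5 mutant. The S4 mutant libraries thus lay slightly above WT on this ratio, while the other 3 mutants lay below. From S2 the ratio was -1.10 and -1.06 in WT, -0.79 and -0.75 in the S2 mutant, -1.504 and -1.501 in the S4 mutant, -1.27 and -1.25 in the S5 line, and -0.88 and -0.91 in the S4-S5 mutant. Here the S2 and S4-S5 mutants were above WT, so the flank had lost a larger part of its share than the interval. For the S2 mutant this rested on the most covered end of the interval. Without that end its interval held 0.666 and 0.706%, against 2.72 and 2.66% in the flank. WT without its own most covered end held 2.63 and 2.68%, against 5.92 and 5.86%, so the S2 mutant then lay below WT. From S4 it was -0.88 and -0.85 in WT against -2.64 and -2.49, -1.79 and -1.82, -1.39 and -1.40, and -1.60 and -1.59 in the mutants, listed in the same order, and all 8 mutant libraries were below WT.

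A window at the same distance on the centromeric side of each viewpoint, added after the data were seen, shows whether the loss was shared by both sides. From the promoter that window held 3.65 and 3.70% in WT, 1.83 and 1.91% in the S2 mutant, 2.57 and 2.67% in the S4 mutant, 1.75 and 1.70% in the S5 line, and 2.01 and 2.03% in the S4-S5 mutant, so it too was lower in each mutant. From S4 it held 7.93 and 7.97% in WT, and more in the S2 mutant (12.8 and 12.7%), where the interval was lowest, and in the S4 mutant (11.1 and 10.999%). It held less in the S5 mutant (5.08 and 5.09%) and the S4-S5 mutant (5.83 and 5.86%). From S2 it held 1.45 and 1.43% in WT and 0.882 to 1.38% in the mutants.

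Inside the interval the reads were counted in 12 bins of 10 kb, all of which passed the minimum of 10 reads on average at each viewpoint. Over the 144 tests of a mutant against WT, 110 bins were lower, 23 were higher and 11 were not called. Over all near-cis bins, 63.5% of 1152 such tests were lower and 27.2% higher. The bin starting at 139750001 was lower in 12 of 12 comparisons, and those starting at 139790001 and 139830001 in 11. Of the 82 near-cis bins tested in all 12 comparisons, 7.32% were lower in 12 and 13.4% in at least 11. The most centromeric bin, from 139740001, was lower in 5 and higher in 6.

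At the promoter 11 of 12 bins fell and 1 rose in the S2 mutant (66.7% of 96 near-cis bins fell and 28.1% rose), 8 fell and 4 rose in the S4 mutant (65.6 and 25.0%), 8 fell and 2 rose in the S5 mutant (67.7 and 26.0%), and 10 fell and 1 rose in the S4-S5 mutant (71.9 and 15.6%). At S2 the counts of bins that fell and rose were 9 and 2 in the S2 mutant (64.2 and 28.4% of 95), 11 and 0 in the S4 mutant (58.9 and 27.4%), 8 and 4 in the S5 mutant (61.1 and 31.6%), and 7 and 2 in the S4-S5 mutant (55.8 and 28.4%). At S4 they were 10 and 0 in the S2 mutant (62.9 and 32.0% of 97), 10 and 2 in the S4 mutant (58.8 and 33.0%), 8 and 3 in the S5 mutant (62.9 and 27.8%), and for the double mutant 10 and 2 (66.0 and 22.7%). The counts of bins that fell are close to the background in the S5 mutant at all viewpoints, in the S4 mutant at the promoter and in the S4-S5 mutant at S2. Scaling moved the split between bins that fell and rose in 5 comparisons. At the promoter it became 6 and 6 in the S4 mutant under DESeq2, 7 and 4 in the S5 mutant with chromosome 9 totals or TMM (7 and 5 under DESeq2), and 8 and 2 in the S4-S5 mutant with chromosome 9 totals or TMM (5 and 4 under DESeq2). For the S4-S5 mutant at S2 it was 5 and 5 under all of these scalings. At S4 the S2 mutant had 10 and 2 with chromosome 9 totals, 9 and 2 with TMM and 9 and 3 under DESeq2. Over all near-cis bins the median log2 fold was -1.03 to -0.25 with near-cis totals -0.81 to 0.051 with chromosome 9 totals, -0.35 to 0.090 with TMM and -0.17 to 0.19 under DESeq2. When covered ends were counted instead, only 1 to 4 of the 12 bins passed the minimum, and edgeR called 0 of them in any comparison (0 at an unadjusted p under 0.05).

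The median log2 fold of the 12 bins was below that of all near-cis bins, which were not matched for distance, in each comparison. In the S2 mutant it was -4.19 against -0.93 at the promoter, -6.13 against -1.03 at S2 and -5.10 against -0.84 at S4. The S4 mutant had -0.68 against -0.43, -1.61 against -0.35 and -1.92 against -0.36. The S5 mutant had -1.66 against -0.58, -1.29 against -0.38 and -0.63 against -0.46. The S4-S5 mutant had -0.61 against -0.57, -0.39 against -0.25 and -1.43 against -0.43.

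**Figure D3:**
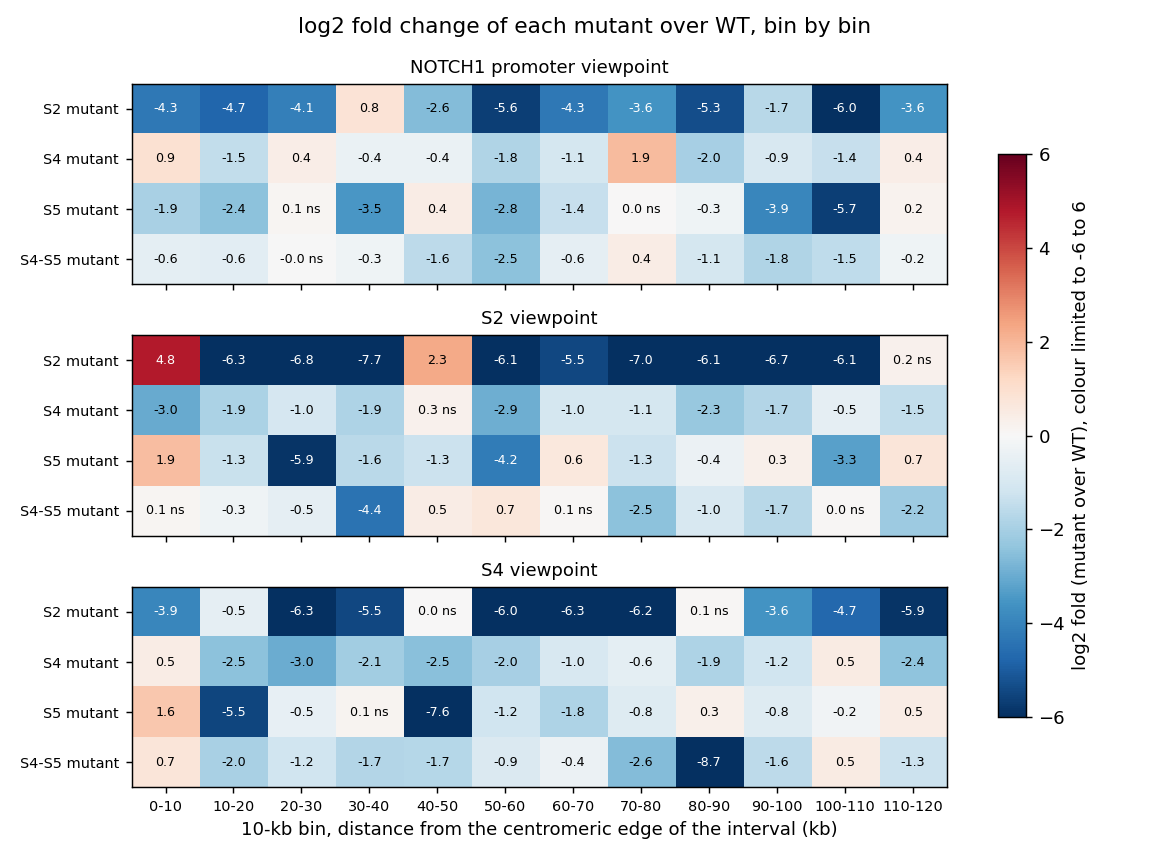
log2 fold of each mutant over WT (colour and number) in the 12 bins of the interval, from its centromeric edge (x, kb), for the 3 viewpoints; ns marks bins not past the threshold. At the S2 viewpoint the S2 mutant has losses down to -7.72 beside a rise of 4.78 in the most centromeric bin, and the lowest value of all, -8.69, is in the S4-S5 mutant at S4.

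In WT the profile inside the interval differed by viewpoint. From the promoter the highest bins started at 139840001 (0.483 and 0.473% in the WT libraries) and 139790001 (0.462 and 0.438%), and the lowest at 139810001 (0.0776 and 0.0679%) and 139760001 (0.135 and 0.165%). The bin from 139740001 had almost the same mean as that from 139760001 (0.1509 against 0.1502%). From S2 the highest started at 139820001 (0.492 and 0.503%) and 139750001 (0.370 and 0.375%). From S4 the highest started at 139750001 (0.324 and 0.355%) and 139790001 (0.314 and 0.321%). The bins starting at 139740001 and 139780001 were the lowest from both S2 and S4.

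**Figure D4:**
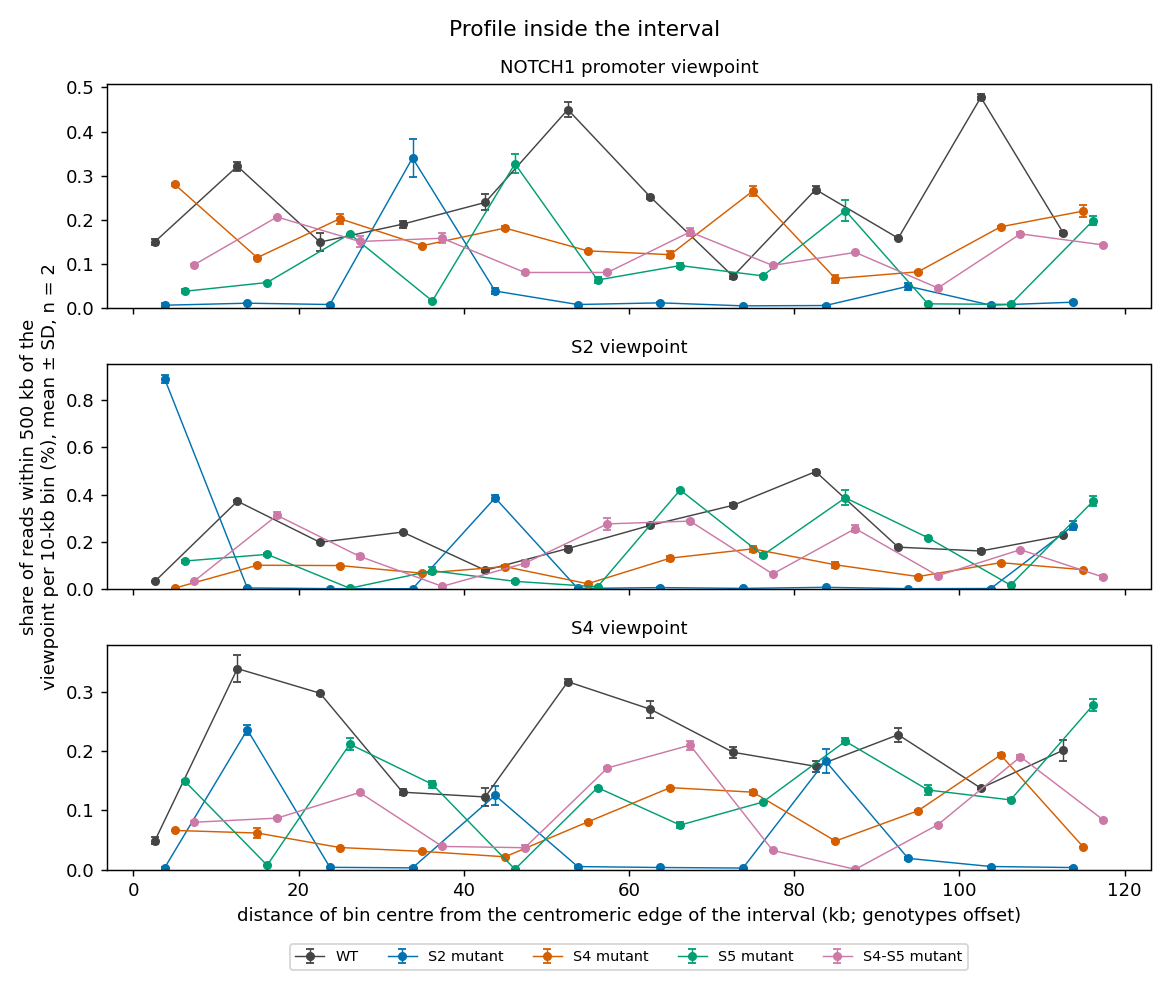
Share of near-cis reads per 10-kb bin (y, %, mean ± SD, n = 2) against distance from the centromeric edge of the interval (x, kb) for each genotype. WT reads are spread over all 12 bins, while the S2 mutant at S2 has most of its reads in the first bin (0.902 and 0.878%).

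The bin with the deepest loss in the S2 mutant at the promoter began at 139840001, which was also the highest WT bin. It held 1026 and 1656 reads in WT and 4 and 6 in the S2 mutant, a log2 fold of -5.98. The same bin was the deepest loss in the S5 mutant, with 13 and 20 reads and a log2 fold of -5.66. The deepest loss in the S4 mutant was the bin from 139820001 (log2 fold -1.99; 0.0610 and 0.0741% against 0.275 and 0.263% in WT). That in the S4-S5 mutant was the bin from 139790001 (log2 fold -2.46; 0.0834 and 0.0797%). Against the S2 and S5 mutants the value of the S4 mutant turned to 0.80. Against the S2 mutant that of the S4-S5 mutant turned to 3.17.

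The largest rises from the promoter were smaller. The bin from 139810001, the lowest in WT, rose in the S4 mutant to 0.257 and 0.274% (log2 fold 1.89) and in the S4-S5 mutant to 0.0970 and 0.0978% (log2 fold 0.44). The bin from 139770001 rose in the S2 mutant by a log2 fold of 0.84, and 96.7 and 98.6% of its reads there were at 1 fragment end. That from 139780001 rose in the S5 mutant by 0.43 on the log2 scale, and turned to -0.45 with non-blind ends alone.

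From S2 the bin from 139740001 was the largest rise in the S2 mutant, from 147 and 229 WT reads to 6037 and 6494 (log2 fold 4.78). In the mutant 99.9% of those reads were at a single fragment end in both libraries. The same bin rose in the S5 mutant (log2 fold 1.87), with at least 97.2% of its reads at 1 end in both libraries, and was the deepest loss in the S4 mutant (log2 fold -3.02; 61 and 112 reads). The deepest losses in the S2 and S4-S5 mutants were both in the bin from 139770001, with 9 and 7 reads and a log2 fold of -7.72 in the S2 mutant, and 217 and 270 reads and -4.42 in the S4-S5 mutant, against 1211 and 1571 WT reads. The value in the S4-S5 mutant was 3.298 against the S2 mutant, which keeps S4 and S5. In the S5 mutant the bin from 139760001 fell furthest (log2 fold -5.90; 64 and 44 reads). The bin from 139790001 rose in the S4-S5 mutant (log2 fold 0.69), and had -0.086 with non-blind ends alone.

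From S4 the bin from 139760001 fell furthest in the S2 mutant, from 2395 and 3297 WT reads to 17 in each library (log2 fold -6.27), and in the S4 mutant (log2 fold -2.998; 784 and 819 reads), where it was 0.38 against mutants that keep S4. The bin from 139780001 fell furthest in the S5 mutant, to 6 and 11 reads (log2 fold -7.56), and had 0.60 with non-blind ends alone. The bin from 139820001 fell furthest in the S4-S5 mutant, from 1340 and 2016 reads to 8 and 10 (log2 fold -8.69). Rises were seen in the bin from 139740001 in the S5 mutant (log2 fold 1.64) and the S4-S5 mutant (0.73), and in that from 139840001 in the S4 mutant (0.49, and -0.079 with non-blind ends alone).

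In any single library 14.4 to 35.2% of the interval's fragment ends had a read. Over all near-cis ends, not matched for distance, the range was 33.7 to 57.7%. Of the interval's ends, 174 of 389 had no read in any of the 10 promoter libraries, 264 of 461 in the S2 libraries and 272 of 458 in the S4 libraries. A read in all 10 libraries was found at 2, 45 and 28 ends. Neither count was made over all near-cis ends, so both lack a background. From the promoter 121 and 129 ends were covered in WT, 57 and 56 in the S2 mutant, 104 and 105 in the S4 mutant, 84 and 77 in the S5 line, and 112 and 121 in the S4-S5 mutant. From S2 154 and 162 ends were covered in WT against 96 to 125 in the mutants, and from S4 155 and 161 against 82 to 109.

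Covered ends grow in number with depth, so the counts were also set to the lowest near-cis depth of each viewpoint by the hypergeometric expectation. WT libraries then covered 104 and 103 ends from the promoter, 154 and 155 from S2, and 144 and 140 from S4. The mutants covered 52.3 to 96.5, 67.0 to 86.5 and 59.9 to 84.0 ends, so WT remained highest at each viewpoint. The S2 mutant then covered more ends than the other mutants from S2 (86.5 and 83.3) and from S4 (79.1 and 84.0). From the promoter it covered 57 and 53.7, against 55.2 and 52.3 in the S5 mutant.

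Ends with a read in both libraries of a genotype were then compared between genotypes. From the promoter 106 ends had a read in both WT libraries, and 24, 81, 51 and 106 in both libraries of the mutants of S2, S4, S5 and both. WT and the S2 mutant shared 9 of them, 8.49% of the WT ends and 37.5% of the mutant's, and WT and the S4-S5 mutant shared 41, 38.7% of each. The S4 and S5 mutants shared 30 and 18 ends with WT, 28.3 and 17.0% of the WT ends and 37.0 and 35.3% of their own. From S2 143 ends were covered in both WT libraries, and the mutants shared 42.7 to 53.8% of them, which made 71.96 to 85.5% of their own. From S4 149 were, and the mutants shared 34.9 to 43.6% of them, which made 79.3 to 91.2% of their own. Over all near-cis ends, not matched for distance, the share of a mutant's ends that were WT ends was 71.1 to 87.9% at the promoter, 87.1 to 94.2% at S2 and 87.8 to 95.8% at S4. The share of WT ends that a mutant shared was 43.6 to 69.1, 56.7 to 68.9 and 60.9 to 70.0% there, in turn. Depth differs between these libraries, so the ends expected at the lowest near-cis depth of each viewpoint were also compared, a step added after the data were seen. Taken first is the share of a mutant's ends that were WT ends. Within the interval it was then 27.1 to 35.9% at the promoter, 66.7 to 85.4% at S2 and 55.6 to 68.0% at S4. Over all near-cis ends it was 66.1 to 82.1, 87.7 to 95.2 and 84.3 to 90.6% in turn. The share of WT ends that a mutant shared was then 8.78 to 31.1, 28.3 to 34.4 and 21.2 to 29.0% within the interval. Over all near-cis ends that was 44.4 to 63.9, 47.1 to 58.0 and 52.2 to 60.4%. No test was made of these overlaps. Interval ends with a read in both libraries of 1 genotype and in no library of another numbered 49, 33 and 35 at the 3 viewpoints. The same count over all near-cis ends was not made, so these numbers have no background.

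In the S2 mutant a single end carried 36.8 to 65.9% of the interval's reads. From the promoter the non-blind end at 139771353 held 232 of 352 and 210 of 334 reads, 65.9 and 62.9%. From S2 the non-blind end at 139745003 held 6028 of 10485 and 6490 of 11711 reads, 57.5 and 55.4%, which is the rise in the first bin. From S4 the non-blind end at 139759427 held 1102 and 966 of 2622 reads in each library, 42.0 and 36.8%, and the 3 most covered ends together held 90.1 and 89.7%. Without the most covered end, the S2 mutant's share of near-cis reads was 0.186 and 0.180% from the promoter, 0.666 and 0.706% from S2 and 0.330 and 0.390% from S4.

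In WT the most covered end held 4.50 to 5.46% of the interval's reads over the 6 libraries. It lay at 139848402 from the promoter, at 139790084 and 139829083 in the 2 libraries from S2, and at 139796373 from S4. The S4 mutant's most covered end held 5.38 to 11.1%, at 139746372, 139829083 and 139847523 from the promoter, S2 and S4. In the S5 mutant it held 8.49 to 14.6%, at 139783978 from the promoter, 139853939 from S2, and 139855300 and 139853939 from S4. In the S4-S5 mutant it held 4.09 to 7.40%, at 139854521, 139759317 and 139848402.

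The number of equally covered ends that would give the same concentration of reads, the inverse Simpson index, summarises this. From the promoter it was 50.4 and 51.3 in WT, 2.23 and 2.45 in the S2 mutant, 37.8 and 38.5 in the S4 mutant, 21.2 and 21.4 in the S5 line, and 54.5 and 54.3 in the S4-S5 mutant. From S2 it was 42.5 and 43.8 in WT, 2.60 and 2.71 in the S2 mutant, 31.6 in both S4 mutant libraries, 15.4 and 14.7 in the S5 line, and 34.3 and 35.7 in the S4-S5 mutant. From S4 it was 61.6 and 56.1 in WT, 3.38 and 3.56 in the S2 mutant, 20.5 and 21.1 in the S4 mutant, 19.8 and 19.3 in the S5 line, and 24.3 in both S4-S5 mutant libraries. All mutants were below WT except the S4-S5 mutant at the promoter. The S2 mutant's interval reads thus rested on a few ends at every viewpoint.

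**Figure D5:**
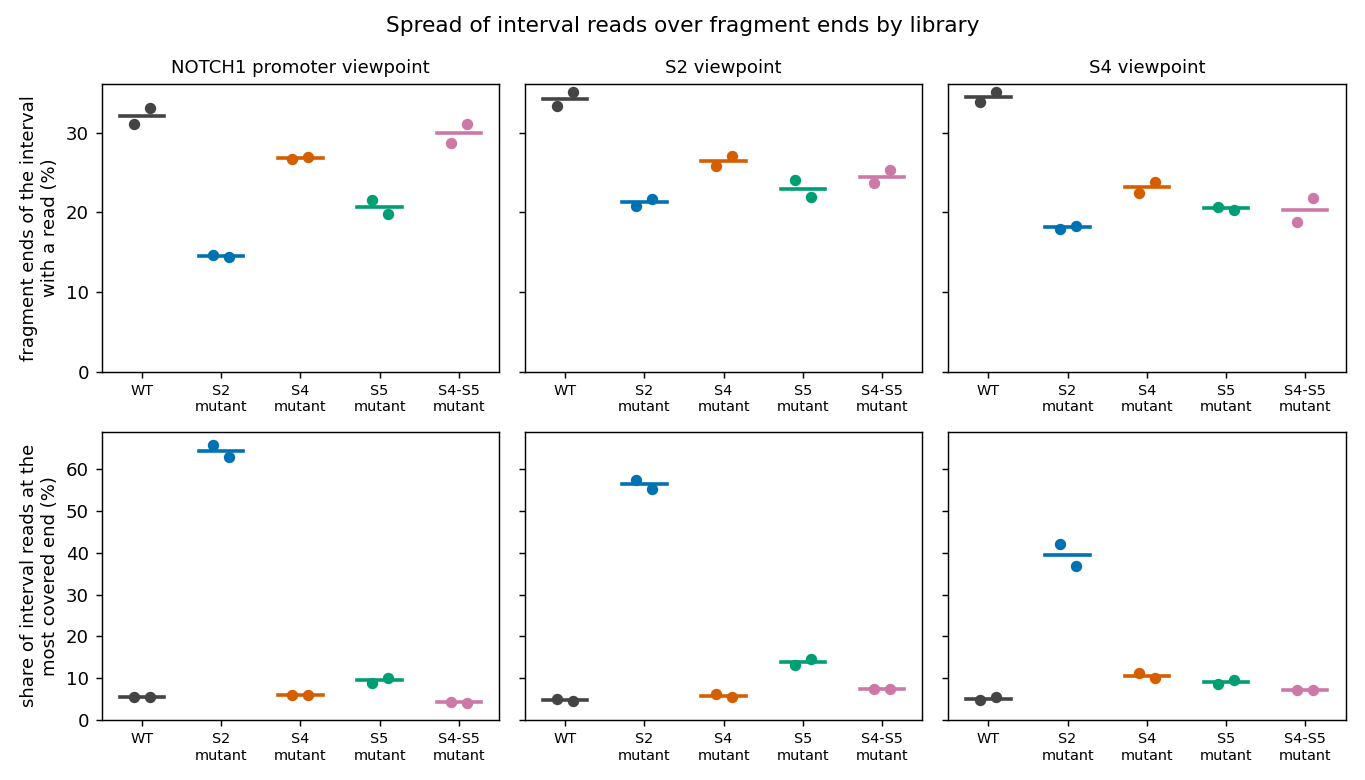
Share of the interval's fragment ends with a read (top, %) and share of the interval's reads at the most covered end (bottom, %) by genotype, 1 point per library with means as bars. Without adjustment for depth, the S2 mutant is lowest in covered ends at each viewpoint. Its most covered end takes 36.8 to 65.9% of interval reads.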

How the data were processed

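Each deposited table lists the DpnII fragment ends of chromosome 9 (hg19) for 1 library. Per the file headers and values, the authors deposited whole read counts per end, and only these counts were used. DeepTools and the build hg19 are named in the submitters' processing notes. Aligner, read filters and counter are not given in the sources read, nor is which second enzyme served which viewpoint. Reads within 5 kb of the viewpoint were left out, and reads within 500 kb were near-cis. edgeR 4.0.16 in R 4.3.3 fitted, per viewpoint, the counts of all 10 libraries in 1 quasi-likelihood model, with near-cis totals as library sizes, for 120-kb windows over chromosome 9 and for near-cis bins of 10 kb (minimum mean 10 reads). Tests were two-sided, with Benjamini-Hochberg adjustment over all windows or bins of a contrast and a threshold of 0.05. The exact permutation test had an upper tail. The edgeR fit and the permutation test were each tested on simulated data. DESeq2 1.42.0 served as an alternative, and so did other scalings, filters, masks, bin widths, kinds of ends, references and left-out libraries. The bins named are, per viewpoint, the 2 highest and 2 lowest in WT and, per mutant, the largest rise and fall among bins past the threshold with both mutant libraries beyond both WT libraries. The ends named are the most covered ones. The interval and the lists were chosen with earlier results of these data known.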

Additional observations from a re-analysis of the deposited data

Results flagged for a closer look

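Some bins of the interval moved in opposite directions at different viewpoints in the same mutant, with both mutant libraries beyond both WT libraries each way. The difference between viewpoints was not tested, and the viewpoints have separate libraries and different sets of ends. The rises of 4.78 and 0.84 in the S2 mutant and of 1.87 in the S5 mutant lay almost wholly at a single fragment end each. With non-blind ends alone, the S5 mutant's bin from 139780001 turned to -0.45 at the promoter and 0.60 at S4. The rises of 0.69 in the S4-S5 mutant at S2 and 0.49 in the S4 mutant at S4 then turned negative. The bin from 139770001 had, in the S2 mutant, log2 folds of 0.84 from the promoter and -7.72 from S2, a difference of 8.56, and 0.84 from the promoter and -5.47 from S4, a difference of 6.31. The bin from 139810001 had, in the S4 mutant, log2 folds of 1.89 from the promoter and -1.06 from S2, a difference of 2.95, and 1.89 from the promoter and -0.60 from S4, a difference of 2.49. The bin from 139780001 had, in the S5 mutant, log2 folds of 0.43 from the promoter and -1.28 from S2, a difference of 1.71, and 0.43 from the promoter and -7.56 from S4, a difference of 7.99. The bin from 139790001 had, in the S4-S5 mutant, log2 folds of -2.46 from the promoter and 0.69 from S2, a difference of -3.15, and 0.69 from S2 and -0.89 from S4, a difference of 1.57. The bin from 139810001 had, in the S4-S5 mutant, log2 folds of 0.44 from the promoter and -2.47 from S2, a difference of 2.91, and 0.44 from the promoter and -2.61 from S4, a difference of 3.05. The bin from 139740001 had, in the S2 mutant, log2 folds of 4.78 from S2 and -4.31 from the promoter, a difference of 9.09, and 4.78 from S2 and -3.92 from S4, a difference of 8.70. The bin from 139740001 had, in the S4 mutant, log2 folds of -3.02 from S2 and 0.91 from the promoter, a difference of -3.93, and -3.02 from S2 and 0.46 from S4, a difference of -3.48. The bin from 139740001 had, in the S5 mutant, log2 folds of 1.87 from S2 and -1.94 from the promoter, a difference of 3.81, and 1.64 from S4 and -1.94 from the promoter, a difference of 3.58. The bin from 139760001 had, in the S4 mutant, log2 folds of -2.998 from S4 and 0.41 from the promoter, a difference of -3.41. The bin from 139840001 had, in the S4 mutant, log2 folds of 0.49 from S4 and -1.37 from the promoter, a difference of 1.86, and 0.49 from S4 and -0.53 from S2, a difference of 1.02. The bin from 139740001 had, in the S4-S5 mutant, log2 folds of 0.73 from S4 and -0.59 from the promoter, a difference of 1.33.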

How the results depend on the processing

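Values for a mutant below are against WT unless a second mutant is named. Window log2 folds kept their direction and their call in 18 of 18 contrasts with chromosome 9 totals, with no filter, with capped ends, with the replicate block, with TMM factors of near-cis bins and with each library left out in turn (-2.58 to 0.80 over the left-out fits). TMM factors over all windows reversed 12 of 18, giving at the promoter 1.28 for S4, 0.81 for S5, 0.58 for S4-S5 and -0.23 for S4-S5 over S5, then at S2 0.71 for S2, 0.62 for S4, 1.63 for S5 and 1.09 for S4-S5, then at S4 0.81 for S4, 1.37 for S5, 0.72 for S4-S5 and -0.083 for S4-S5 over S4. DESeq2 with its own size factors reversed 13 and took the call from 1, giving at the promoter 0.68 for S4, 0.63 for S5, 0.25 for S4-S5 and -0.38 for S4-S5 over S5, then at S2 3.801 for S2, 0.94 for S4, 3.29 for S5, 1.11 for S4-S5 and 0.18 for S4-S5 over S4, then at S4 2.74 for S2, 1.101 for S4, 2.83 for S5, 0.999 for S4-S5 and -0.10 for S4-S5 over S4. DESeq2 with factors of near-cis bins, chosen after seeing the data like those TMM factors, reversed 2, giving at the promoter 0.079 for S4, then at S2 0.30 for S2. Mutants that keep the site, in place of WT, reversed 8 and took the call from 1, giving at the promoter 1.296 for S4, 0.34 for S5 and 1.58 for S4-S5, then at S2 0.044 for S2, 0.60 for S5 and 0.16 for S4-S5, then at S4 -0.037 for S4, 1.08 for S5 and 0.94 for S4-S5. Covered ends in place of reads reversed 4 and took the call from 11, giving at the promoter -0.068 for S4, -0.23 for S5, -0.033 for S4-S5, 0.035 for S4-S5 over S4 and 0.19 for S4-S5 over S5, then at S2 -0.14 for S2, -0.085 for S4, -0.13 for S5, -0.086 for S4-S5, -0.00051 for S4-S5 over S4 and 0.048 for S4-S5 over S5, then at S4 -0.30 for S4, -0.34 for S5, -0.067 for S4-S5 over S4 and -0.032 for S4-S5 over S5. Non-blind ends alone reversed 1, giving at S4 -0.30 for S4-S5 over S4. The call was lost in 1 contrast with a 20-kb mask, giving at S2 -0.031 for S4-S5 over S5, and, without the most covered end (also chosen after seeing the data), at S2 -0.036 for S4-S5 over S5. The cause was not tested. Of the bins named, 4 reversed against mutants that keep the site, giving at the promoter 0.80 for S4, bin from 139820001, and 3.17 for S4-S5, bin from 139790001, then at S2 3.298 for S4-S5, bin from 139770001, then at S4 0.38 for S4, bin from 139760001. With non-blind ends 4 reversed, giving at the promoter -0.45 for S5, bin from 139780001, then at S2 -0.086 for S4-S5, bin from 139790001, then at S4 -0.079 for S4, bin from 139840001, and 0.60 for S5, bin from 139780001. The percentage of interval bins called by edgeR was 0 with covered ends in 12 of 12 comparisons, where only 1 to 4 of the 12 bins passed the minimum, 0 had an unadjusted p under 0.05 and DESeq2 was not run, and 50.0% with 20-kb bins for the S5 mutant at S2. In covered ends the adjusted exact permutation p for the near-cis share was 0.0857, 0.193 and 0.1 at the promoter, S2 and S4 among 5 genotypes, and 0.1, 0.6 and 0.327 among 4 mutants. In covered ends the adjusted exact permutation p for the chromosome 9 share was 0.0857, 0.271 and 0.541 at the promoter, S2 and S4 among 5 genotypes, and 0.193, 0.733 and 0.686 among 4 mutants. In covered ends the adjusted exact permutation p for the ratio to the flank was 0.13, 0.686 and 0.193 at the promoter, S2 and S4 among 5 genotypes, and 0.291, 0.541 and 0.651 among 4 mutants. Deviations of same-numbered libraries correlated at -0.30 to 0.55 between genotypes, with medians of 0.04 to 0.08 by viewpoint. Replicate numbers were therefore not taken as pairs, though a pairing of some libraries remains possible. The replicate block, with window folds of -2.50 to 0.76, changed no call. Depth limits the S2 mutant at the promoter most, with 352 and 334 interval reads.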
